A study of Homo sapiens with 688 samples.

Results

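The 10 long noncoding RNAs described here are NEAT1, MALAT1, GAS5, SNHG1, SNHG3, SNHG5, SNHG7, SNHG8, SNHG12 and EPB41L4A-AS1, out of 28957 gene symbols in the 8 count tables of the series. They were chosen by gene symbol with measured values of these tables known. The value that selected NEAT1 was its higher level in albendazole wells than in DMSO wells of BT20 breast cancer cells on the PLATE-Seq plate. That contrast is therefore given as a description for every member, with no test. The series introduced PLATE-Seq, in which polyadenylated RNA is captured in each well of a plate, reverse transcribed with a barcoded oligo(dT) primer and pooled into 1 library, so that reads come mostly from 3′ ends. It covered BT20 cells treated with 7 drugs, U87 glioblastoma cells treated with 184 compounds, and untreated LNCaP prostate cancer cells.

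NEAT1 is the RNA scaffold of paraspeckles, bodies of the nucleus that assemble around it and hold proteins such as NONO and SFPQ. MALAT1, its neighbour on the chromosome, is an abundant nuclear RNA of the splicing speckles. The other 8 members are spliced RNAs whose introns carry small nucleolar RNAs (snoRNAs), the guides for methylation (box C/D) and pseudouridylation (box H/ACA) of ribosomal RNA. Once the introns are removed, the joined exons have no long reading frame, and several such host RNAs are known to start with a pyrimidine tract that couples translation to growth and to be degraded by nonsense-mediated decay.

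The BT20 plate held 96 wells, 12 for DMSO and 12 for each drug, all treated for 6 h. The doses were 0.56 µM albendazole, which binds tubulin, 2 µM aprepitant, a neurokinin receptor antagonist, 0.194 µM gemcitabine, a nucleoside analog, and 7.16 µM crizotinib, an inhibitor of the ALK and MET kinases. The topoisomerase II inhibitors mitoxantrone and idarubicin were given at 0.18 and 0.084 µM, and the proteasome inhibitor bortezomib at 0.044 µM. Material from the same wells was also pooled, 6 wells to a pool, into 2 conventional TruSeq libraries per condition. U87 cells were treated for 24 h in 2 sets of compounds, named 1 and 4, each with duplicate plates A and B that held 1 well per compound, 2 DMSO wells and 2 untreated wells. Each U87 library came from lysates pooled from 2 positions of the culture plate, and the doses were set per compound for a common degree of growth inhibition. The 2 LNCaP plates, A1 and A2, with 96 wells each, came from the same untreated lysates after 2 kinds of mRNA purification, and the labels do not say which plate received which. The methods place BT20 on a list of lines that are often misidentified. Each line was bought from 1 supplier, and no source says that wells came from separately grown cultures, so p-values measure the spread between wells or pools, which may be technical.

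The total count per library ranged from 367848 to 1317952 in BT20 wells, from 16881740 to 29068232 in TruSeq pools, from 17063 to 1537549 in U87 wells and from 19448 to 1277169 in LNCaP wells. Levels are given in CPM, a gene's count divided by the total count of its library and scaled to 1 common total. On the BT20 plate, 6 other symbols took 41.1% of all counts, against 7.57% in the TruSeq pools. The lines carried their markers in part. In BT20 wells the epithelial genes KRT8, KRT18, EPCAM and EGFR had medians of 1008, 1408, 278 and 730 CPM, while KRT19 was at 0. VIM, SPARC, CHI3L1 and CD44 were detected on all 4 U87 plates, and KLK3, KLK2, FOLH1 and TMPRSS2 on both LNCaP plates, with medians of 0 CPM in the other lines.

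All 10 genes are annotated as lncRNAs in GRCh37. NEAT1 lies at chr11:65190245-65213011 and MALAT1 at chr11:65265111-65275544, both on the plus strand. The full-length form of NEAT1 and MALAT1 itself do not end in an ordinary poly(A) tail. Both are cut by RNase P, and a U-rich stretch folds back on an encoded A-rich stretch to form a protective triple helix at the end. These ends are shown because both kinds of library select polyadenylated RNA. Counts are given per gene symbol, so forms of NEAT1 cannot be told apart. No NEAT1 level here is that of the full-length form alone. Each line gives the 90 bases of the plus strand that end with the A-rich stretch, at chr11:65273498-65273587 for MALAT1 and chr11:65212922-65213011 for NEAT1 (GRCh37). Capitals mark AAAAAGCAAAA, the longest ending of NEAT1 that also occurs in MALAT1, and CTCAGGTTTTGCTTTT, the longest run of letters before it that both windows share. The ending occurs at 2 places in MALAT1, and the place with the longer shared run is shown.
MALAT1: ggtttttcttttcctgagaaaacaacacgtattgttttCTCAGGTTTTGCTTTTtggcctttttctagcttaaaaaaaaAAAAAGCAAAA
NEAT1: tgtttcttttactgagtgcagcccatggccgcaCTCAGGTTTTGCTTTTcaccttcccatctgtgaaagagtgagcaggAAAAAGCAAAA
The encoded run of A before the last GCAAAA was 13 bases in MALAT1 and 5 in NEAT1. Anywhere in the gene, the longest run of A was 13 bases in MALAT1 and 22 in NEAT1.

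GAS5 (chr1:173827697-173838020, minus strand) holds 11 snoRNA genes in the RefSeq annotation, 10 of them box C/D. SNHG1 (chr11:62619450-62623425, minus strand) holds 8, all box C/D. SNHG5 (chr6:86360209-86388650, minus strand) holds SNORD50A and SNORD50B. SNHG3 (chr1:28832492-28837404, plus strand) holds the box H/ACA genes SNORA73A and SNORA73B, and SNHG7 (chr9:139615818-139622636, minus strand) SNORA17A and SNORA17B. SNHG12 (chr1:28905050-28909644, minus strand) holds SNORA16A, SNORA44, SNORA61 and SNORD99. SNHG8 (chr4:119199858-119206471, plus strand) holds SNORA24, and EPB41L4A-AS1 (chr5:111496223-111500515, plus strand) SNORA13.

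The first bases of 4 hosts are shown because a C followed by pyrimidines at the start is the mark of growth-regulated translation. Each line gives 15 bases before and 35 from the RefSeq start (GRCh38.p14), in the direction of transcription, with the pyrimidine run that begins at the start in capitals. The windows lie at chr6:85678699-85678748 for SNHG5, chr1:28581839-28581888 for SNHG12, chr11:62855851-62855900 for SNHG1 and chr1:173869011-173869060 for GAS5, all on the minus strand.
SNHG5: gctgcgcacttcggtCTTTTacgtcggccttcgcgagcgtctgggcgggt
SNHG12: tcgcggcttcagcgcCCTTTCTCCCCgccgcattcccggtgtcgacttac
SNHG1: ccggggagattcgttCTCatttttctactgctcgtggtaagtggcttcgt
GAS5: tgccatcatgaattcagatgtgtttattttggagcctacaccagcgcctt
Of the 9 members matched to the RefSeq table, SNHG5 and SNHG12 started with C in a run of at least 5 pyrimidines. The same held for 4 of 11 other noncoding hosts (36.4%), 9 of 18 protein-coding hosts (50%) and 1429 of all 35116 genes of the table (4.07%). GAS5 had no pyrimidine at its annotated start. A single annotated start per gene was used, and the starts used in these cells were not measured. A gene without the mark here may carry it at another start.

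NEAT1 was the member with the clearest response in BT20 cells. On the PLATE-Seq plate it ran from 377 CPM in the lowest DMSO well through a median of 470 to 638 CPM in the highest. With albendazole, the contrast that selected it, the wells lay at 443, 622 and 716 CPM (lowest, median and highest), 1.32 times the DMSO median. The groups overlapped, with 10 of 12 albendazole wells above the DMSO median and 5 above the highest DMSO well. When the 6 most abundant symbols were left out of the totals, the ratio was 1.45 and all 12 albendazole wells lay above the DMSO median. These symbols took a median of 43.8% of the counts with albendazole and 38.8% with DMSO.

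The other 9 members are described in the same contrast with no test. MALAT1 had 1.31 times its DMSO median with albendazole, 507 CPM against 385 CPM, and 9 of 12 wells above that median. GAS5 was at 0.84 times, SNHG1 at 0.865 and SNHG3 at 0.869 times. SNHG7 had 61.9 CPM against 83.8 CPM, and SNHG5 and SNHG8 had ratios of 1.02 and 1.03. SNHG12 and EPB41L4A-AS1, at 6.74 and 13.2 CPM, had ratios of 0.566 and 0.591 on few counts per well. With the 6 most abundant symbols left out of the totals, the ratio was 1.40 for MALAT1 and 1.26 for SNHG5. On that scale GAS5, SNHG1 and SNHG3 were at 0.96, 0.948 and 0.969 times, SNHG8 at 1.09, SNHG7 at 0.771 and both SNHG12 and EPB41L4A-AS1 at 0.664 times. NEAT1 and MALAT1 were on the higher side on both scales, SNHG7, SNHG12 and EPB41L4A-AS1 on the lower, and the groups overlapped for all members.

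NEAT1 rose most with bortezomib. The tests on the plate use the DMSO wells of the contrast that selected NEAT1. For NEAT1 they are not independent of that selection. The bortezomib wells lay at 904, 1219 and 1840 CPM (lowest, median and highest), and every well was above the highest DMSO well. The log2 fold change was 1.47 ± 0.097 (SE, n = 12 and 12 wells, edgeR quasi-likelihood test, adjusted p = 3.81e-19). Of all genes tested for bortezomib, 4.93% passed an adjusted p under 0.05. With crizotinib the wells lay at 765, 1027 and 1239 CPM, again all above the highest DMSO well. The change was 1.11 ± 0.09 (SE, adjusted p = 3.19e-15), where 2.05% of all genes passed.

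Idarubicin gave a smaller rise of NEAT1, with wells at 416, 623 and 761 CPM. The median was 1.32 times that of DMSO, the same ratio as with albendazole, which selected NEAT1. The log2 change was 0.40 ± 0.10 (SE, edgeR adjusted p = 0.0123), and 5 of 12 wells exceeded the highest DMSO well. For idarubicin 2.78% of all genes passed. With the remaining drugs the NEAT1 wells overlapped with DMSO, at medians of 506 CPM with mitoxantrone, 525 CPM with aprepitant and 529 CPM with gemcitabine. None of these 3 passed by edgeR or DESeq2, with log2 changes of 0.12, 0.16 and 0.23. For mitoxantrone 1.21% of all genes passed. For aprepitant and gemcitabine the share was 0%, with 356 and 377 genes at an unadjusted p under 0.05, and DESeq2 called 2 and 0 genes.

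**Figure D1:**
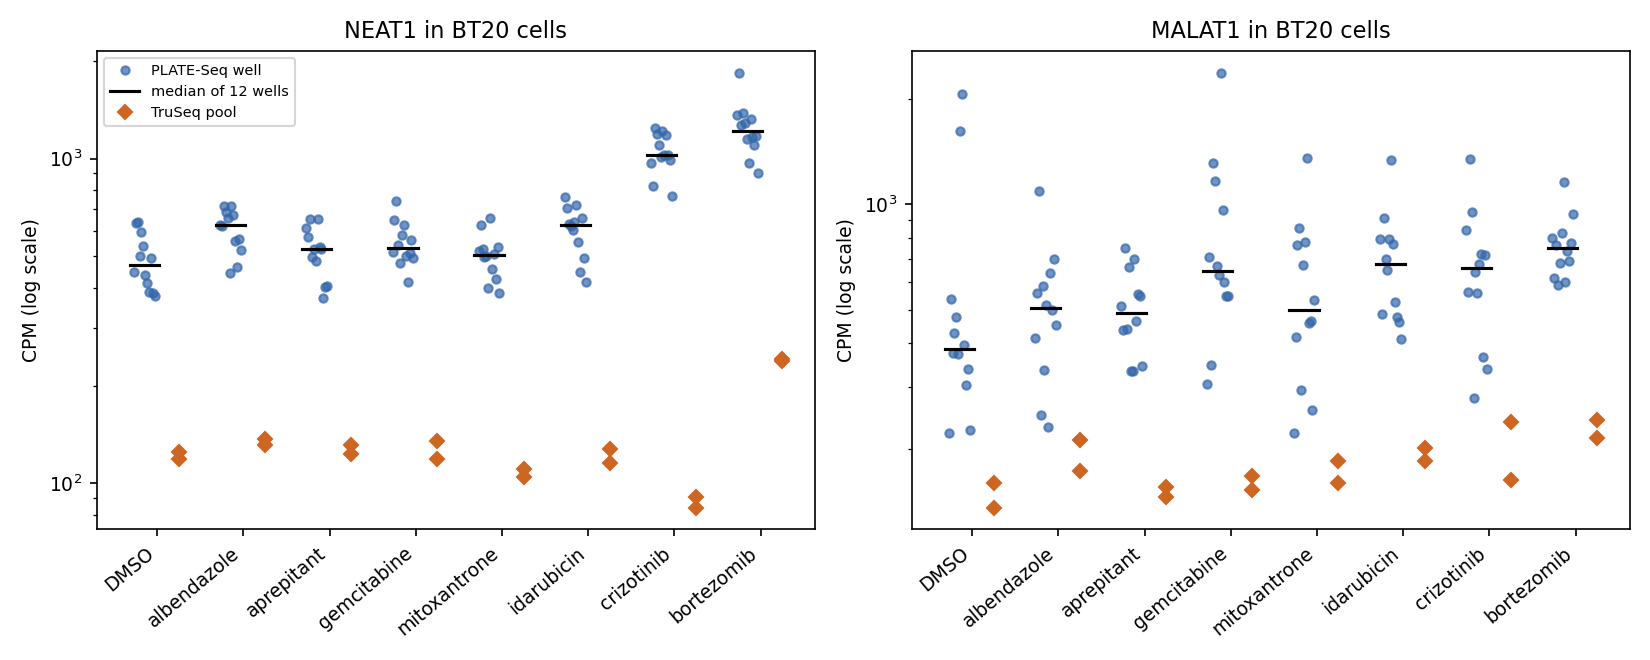
NEAT1 (left) and MALAT1 (right) in BT20 cells in CPM on a log axis, by drug. Blue points are the 12 PLATE-Seq wells, black bars their median and orange diamonds the 2 TruSeq pools. The NEAT1 wells of crizotinib and bortezomib all lie above the highest DMSO well at 638 CPM, while the TruSeq pools of crizotinib lie below those of DMSO. MALAT1 wells spread from 222 to 2069 CPM with DMSO alone.

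NEAT1 accounted for all 3 edgeR calls among the 56 member and drug combinations that could be tested on the plate. Each of these calls used the DMSO wells of the contrast that selected NEAT1. MALAT1 had a wide spread. Its DMSO wells lay at 222, 385 and 2069 CPM, an SD of 0.998 on the log2 scale, where 218 genes of like mean had a median SD of 0.229 and 99.5% of them a lower SD. With bortezomib the MALAT1 wells were at 586, 749 and 1158 CPM, all above the DMSO median but none above the highest DMSO well. The log2 change was 0.44 (adjusted p = 0.579 by edgeR), and DESeq2 called it with a change of 0.75 (adjusted p = 0.0406).

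SNHG7, the host of SNORA17A and SNORA17B, came nearest to a call among the hosts. Its crizotinib wells lay at 14.2, 47.3 and 75.6 CPM against 27.8, 83.8 and 176 CPM with DMSO, and 0 of 12 exceeded the DMSO median. The log2 change was -0.90 ± 0.267 (SE, edgeR adjusted p = 0.0682), and it passed when all conditions shared a fit (-0.89, adjusted p = 0.0372). SNHG3 with crizotinib had a median of 16.1 CPM against 29.0 CPM, with 6 of 12 wells below the lowest DMSO well. GAS5, at a DMSO median of 146 CPM, and SNHG1, at 74.4 CPM, overlapped with DMSO for every drug. SNHG5, SNHG8, SNHG12 and EPB41L4A-AS1 had DMSO medians of 8.19, 34.1, 11.9 and 22.4 CPM, which is few counts per well and limits what could be detected.

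The TruSeq pools are deeper libraries of the same wells and not new cultures. NEAT1 had 125 and 118 CPM in the 2 DMSO pools and 239 and 241 CPM in the bortezomib pools. Its log2 change was 1.05 ± 0.054 (SE, n = 2 and 2 pools, edgeR on all 16 pools, adjusted p = 4.44e-17). Of all genes, 40.8% passed for bortezomib in TruSeq. With crizotinib NEAT1 was lower, at 84.2 and 90.9 CPM, and neither pool overlapped with DMSO. The change was -0.44 ± 0.058 (SE, adjusted p = 2.68e-07), where 42.2% of all genes passed. With mitoxantrone it was at 104 and 111 CPM, a change of -0.22 ± 0.056 (SE, adjusted p = 0.00296), where 30.8% of all genes passed. With idarubicin, where NEAT1 was called on the plate, the pools had 127 and 115 CPM. The change was -0.02 (edgeR adjusted p = 0.765) with no call.

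NEAT1 thus moved in opposite directions with crizotinib in the 2 kinds of library made from the same wells. In a joint fit of wells and pools, added after seeing the data, its crizotinib effect in PLATE-Seq minus that in TruSeq was 1.55 ± 0.227 on the log2 scale (SE, edgeR adjusted p = 3.59e-05). It was the only gene called in this comparison, 1 of 10466 genes or 0.00955%. The same difference was 0.44 for bortezomib, 0.41 for idarubicin and 0.32 for mitoxantrone, with no call. The joint fit took wells and pools as independent samples with a shared spread per gene, although the pools came from the same wells. Its SE for NEAT1 with crizotinib was above those of the separate fits (0.09 and 0.058), so a gene without a call may still differ. What sets the kinds of library apart for NEAT1 was not tested.

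Albendazole gave 0 calls among the 10 members in TruSeq by edgeR and by DESeq2, where 11.3% of all genes passed. NEAT1 had 137 and 132 CPM, above both DMSO pools, with a log2 change of 0.15 ± 0.055 (SE, edgeR adjusted p = 0.0805). These pools came from the wells whose NEAT1 level selected it. This test of NEAT1 is therefore not independent of the selection and gives no separate support. SNHG7 and SNHG12 had changes of 0.17 and 0.24 (adjusted p = 0.0682 and 0.0767), and these 3 members had an unadjusted p under 0.05. Aprepitant and gemcitabine also gave 0 member calls by both tools and 0 members at an unadjusted p under 0.05, beside 1.82% and 0% of all genes. For gemcitabine 1143 genes had an unadjusted p under 0.05.

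Among the snoRNA hosts the TruSeq changes were small. SNHG12 was at 15.3 and 15.1 CPM in the DMSO pools, 24.5 and 22.9 CPM with mitoxantrone and 23.4 and 21.4 CPM with idarubicin. Its log2 changes were 0.60 ± 0.088 (SE, edgeR adjusted p = 3.23e-06) and 0.54 ± 0.087 (SE, adjusted p = 7.4e-06). SNHG7 rose with the same 2 drugs, by 0.37 and 0.34. SNHG1, the host of 8 box C/D snoRNAs, rose by 0.15 and 0.32. These 3 hosts were the members that passed as higher with both topoisomerase II inhibitors, and 37.4% of all genes passed for idarubicin.

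SNHG3, the host of the U17 snoRNAs, fell with bortezomib from 31.6 and 29.5 CPM to 17.6 and 17.5 CPM. Its log2 change was -0.73 ± 0.073 (SE, edgeR adjusted p = 5.68e-10), and with crizotinib it was -0.28 (adjusted p = 0.00248). SNHG7 went up with bortezomib (0.51, adjusted p = 3.42e-08) and down with crizotinib (-0.34, adjusted p = 0.000122). Bortezomib also raised MALAT1, at 242 and 215 CPM against 160 and 136 CPM (0.70, adjusted p = 0.0121), and GAS5 by 0.16 (adjusted p = 0.00649). EPB41L4A-AS1 rose by 0.38 with bortezomib (adjusted p = 0.0441) at 7.0 and 5.8 CPM. Its strand of counting in TruSeq is not given in the sources used here, so reads of an overlapping antisense gene cannot be told apart. In all, 16 of 70 member and drug combinations passed in TruSeq, 11 higher and 5 lower, or 22.9%, near the 23.5% of all gene and drug combinations.

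**Figure D2:**
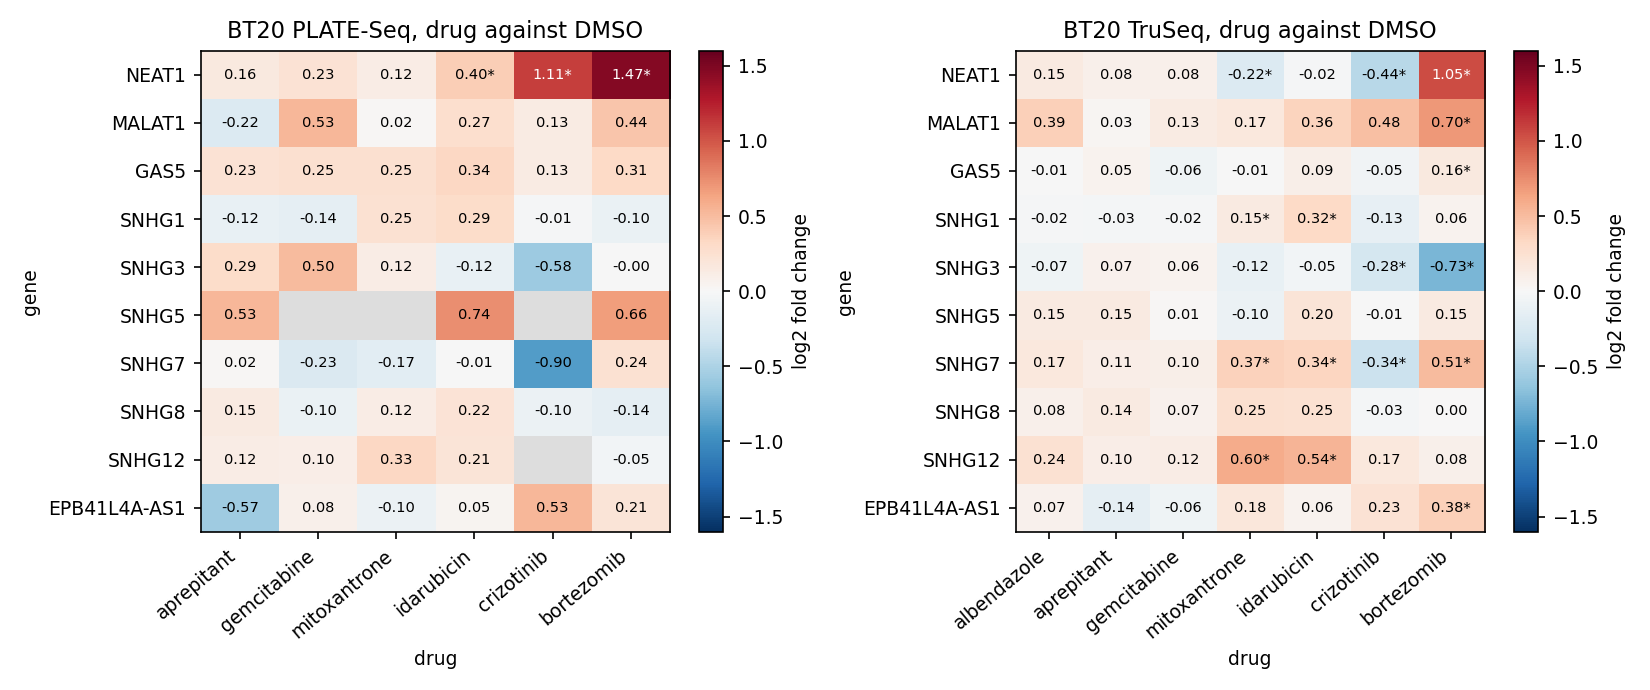
Log2 fold change against DMSO of each member (rows) and drug (columns) in BT20 PLATE-Seq wells (left) and TruSeq pools (right). Red is higher and blue lower, grey cells were too low to test, and asterisks mark an adjusted p under 0.05. Albendazole is left out on the left because it selected NEAT1, and its column on the right comes from pools of the same wells. The crizotinib cell of NEAT1 is 1.11 on the left and -0.44 on the right.

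Genes of the same pathways were taken from lists chosen together with the members. With bortezomib on the plate, SNHG17, another noncoding host, rose by 1.03 (edgeR adjusted p = 0.00909) as the only 1 of 7 that passed, and HSPA8, a heat shock protein gene that hosts snoRNAs, rose by 0.97 (adjusted p = 6.96e-17) as the only 1 of 22 protein-coding hosts. With crizotinib the paraspeckle protein gene SFPQ fell (-0.66, adjusted p = 0.00328), 1 of 10, and HSPA8 fell by 0.39. In TruSeq, crizotinib lowered 5 of 11 paraspeckle protein genes and raised none, among them CPSF6 (-0.32), RBM14 (-0.47) and HNRNPH3 (-0.30), with a list median of -0.08 against 0.00 over all genes, where 42.2% of all genes passed. For bortezomib 1 of these 11 rose and 4 fell, where 40.8% of all genes passed. Of 10 nonsense-mediated decay factors, 4 rose with bortezomib, led by UPF3B at 0.31, and none fell, a share near the same 40.8%. With idarubicin NOP56, a core protein of box C/D particles whose gene also hosts snoRNAs, rose by 0.39 on the plate (adjusted p = 0.0215).

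In U87 cells the members were compared with the DMSO wells of the same plates, compound by compound. Each compound had 2 wells, so the edgeR fit held these, the 4 DMSO wells and the 4 untreated wells of the set, with the plate as a term, and p-values were adjusted over all genes and all 184 compounds together. Between the 8 DMSO and the 8 untreated wells their log2 differences ran from -0.12 for MALAT1 to 0.44 for EPB41L4A-AS1, with 0 of 10 at an unadjusted or adjusted p under 0.05 by edgeR. DESeq2 also called 0, and 3.2% of all genes passed.

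Over the 1840 member and compound combinations, 62 passed, 51 higher and 11 lower, or 3.37%. Over all genes and compounds 1.95% passed. The count fell to 15 without the compound wells of plate A and to 17 without those of plate B, and 9 of the 62 passed in every alternative that gave them a value. NEAT1 and MALAT1 held 29 of the 62. NEAT1 had 12 rises and 0 falls, and MALAT1 16 rises and 1 fall. GAS5 had 9 rises and 4 falls. SNHG1 had 5 and 2, SNHG3 2 and 3, SNHG5 1 and 1, EPB41L4A-AS1 3 and 0, SNHG12 2 and 0, SNHG8 1 and 0, and SNHG7 0 and 0. For 36 of the 184 compounds at least 1 member passed, and for 7 compounds at least 3 did, led by doxorubicin with 5. Of all genes, 0.692% to 14.9% passed for these 36 compounds and 5.09% to 10.3% for the 7. For doxorubicin the share was 5.29%.

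NEAT1 rose most with 4 -METHOXYCHALCONE at 9.87 µM. Its wells had 401 CPM on plate A and 345 CPM on plate B, against DMSO wells of 80.7 and 88.0 CPM and of 26.8 and 40.0 CPM. The log2 change was 2.90 ± 0.267 (SE, edgeR adjusted p = 5.97e-08). With OTX015, a BET bromodomain inhibitor, at 3.91 µM, the wells had 372 and 169 CPM beside the same DMSO wells, a change of 2.57 ± 0.229 (SE, adjusted p = 2.35e-08).

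The next 3 compounds were inhibitors of histone deacetylases (HDAC). Romidepsin at 0.697 µM gave 273 and 236 CPM, against DMSO wells of 29.2 and 33.0 CPM on plate A and 39.1 and 85.3 CPM on plate B (log2 change 2.56, edgeR adjusted p = 3.46e-08). Resminostat at 4.44 µM gave 344 and 123 CPM (2.11, adjusted p = 8.94e-07). Belinostat at 3.5 µM gave 130 and 203 CPM (1.97, adjusted p = 0.000343), on 24 and 42 counts in wells of 184684 and 207048 total counts. In these combinations both wells exceeded every DMSO well of their plate.

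MALAT1 rose most with OTX015, to 9651 CPM on plate A and 1947 CPM on plate B. The DMSO wells of that set differed by plate, with 1471 and 1976 CPM on plate A and 424 and 450 CPM on plate B. The log2 change was 2.71 ± 0.275 (SE, edgeR adjusted p = 0.00113). Pimasertib, a MEK kinase inhibitor, at 0.911 µM gave 10079 and 2935 CPM (2.65, adjusted p = 0.00088). Its other large rises were with dabrafenib, a RAF inhibitor (2.23), the MEK inhibitor TAK-733 (1.95) and an inhibitor of GABA uptake at 6.18 µM (1.84). The only fall was with an inhibitor of anandamide uptake at 0.9 µM, to 436 and 191 CPM (-1.53, adjusted p = 0.0295). Of its 17 calls, 16 were in set 4.

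GAS5 rose with HOMIDIUM BROMIDE (0.98), ryuvidine (0.95), mithramycin A (0.95), plinabulin (0.92) and ceritinib (0.86). Mithramycin A, which binds DNA and blocks transcription factors, gave 216 and 313 CPM against DMSO wells of 94.3 and 105 CPM and of 160 and 186 CPM. It fell with trametinib, a MEK inhibitor, to 44.9 and 76.7 CPM beside the same DMSO wells (-1.13, edgeR adjusted p = 0.00442). Refametinib, another MEK inhibitor, gave -1.23, belinostat -1.38 and 3-CPMT -2.23. The 3-CPMT wells held 9 and 2 GAS5 counts, and the refametinib well of plate B 7.

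SNHG1 rose most with 4 -METHOXYCHALCONE, to 844 and 817 CPM from DMSO wells of 304 and 402 CPM and of 201 and 285 CPM (1.63, edgeR adjusted p = 9.54e-07). It rose with doxorubicin, a topoisomerase II inhibitor (1.31), romidepsin (0.98), mithramycin A (0.77) and ryuvidine (0.65). The MEK inhibitors refametinib and TAK-733 lowered it, by 1.24 and 0.96 on the log2 scale. SNHG3 fell with 3 compounds, of which 2 are MEK inhibitors, pimasertib (-1.41) and TAK-733 (-0.99), and the other is the platinum compound satraplatin (-0.94). It rose with mithramycin A (1.06) and OTX015 (0.95).

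SNHG8 was called with doxorubicin alone, at 805 and 494 CPM against DMSO wells of 285 and 382 CPM and of 224 and 253 CPM (1.04, edgeR adjusted p = 0.000136). EPB41L4A-AS1 rose with doxorubicin (2.40), bortezomib (1.87) and ryuvidine (1.61). SNHG12 rose with 4 -METHOXYCHALCONE (1.72) and with triapine, an inhibitor of ribonucleotide reductase (1.30). SNHG5, the host of the U50 snoRNAs, rose with methyl 2,5-dihydroxycinnamate (0.91) and fell with celastrol (-1.34), where the wells held 45384 and 43487 total counts and 21 and 6 counts of the gene. SNHG7 had a mean of 17.1 CPM in U87 wells and passed with 0 compounds by edgeR and by DESeq2, with 10 of 184 at an unadjusted p under 0.05.

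NEAT1 was at 0 counts in both fludarabine wells, which held 76948 and 95412 total counts, in the tirapazamine well of plate B (17063) and in the celastrol well of plate B (43487). None of these compounds was called for NEAT1. Over the 184 compounds the correlation of a member's level with the total count of its wells was between -0.24 for SNHG12 and 0.37 for SNHG3, and was 0.21 for NEAT1 and -0.13 for MALAT1, where the points share plates. The wells of 4 -METHOXYCHALCONE, romidepsin, belinostat and doxorubicin, which hold large rises, had total counts between 184684 and 364834, below the plate medians of 559160 to 765536. The fits without wells of low depth gave no value for belinostat and doxorubicin, as both wells of each were under 0.5 times the plate median. These fits kept only the plate B wells of 4 -METHOXYCHALCONE and romidepsin. The part of depth in these results was not tested further.

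**Figure D3:**
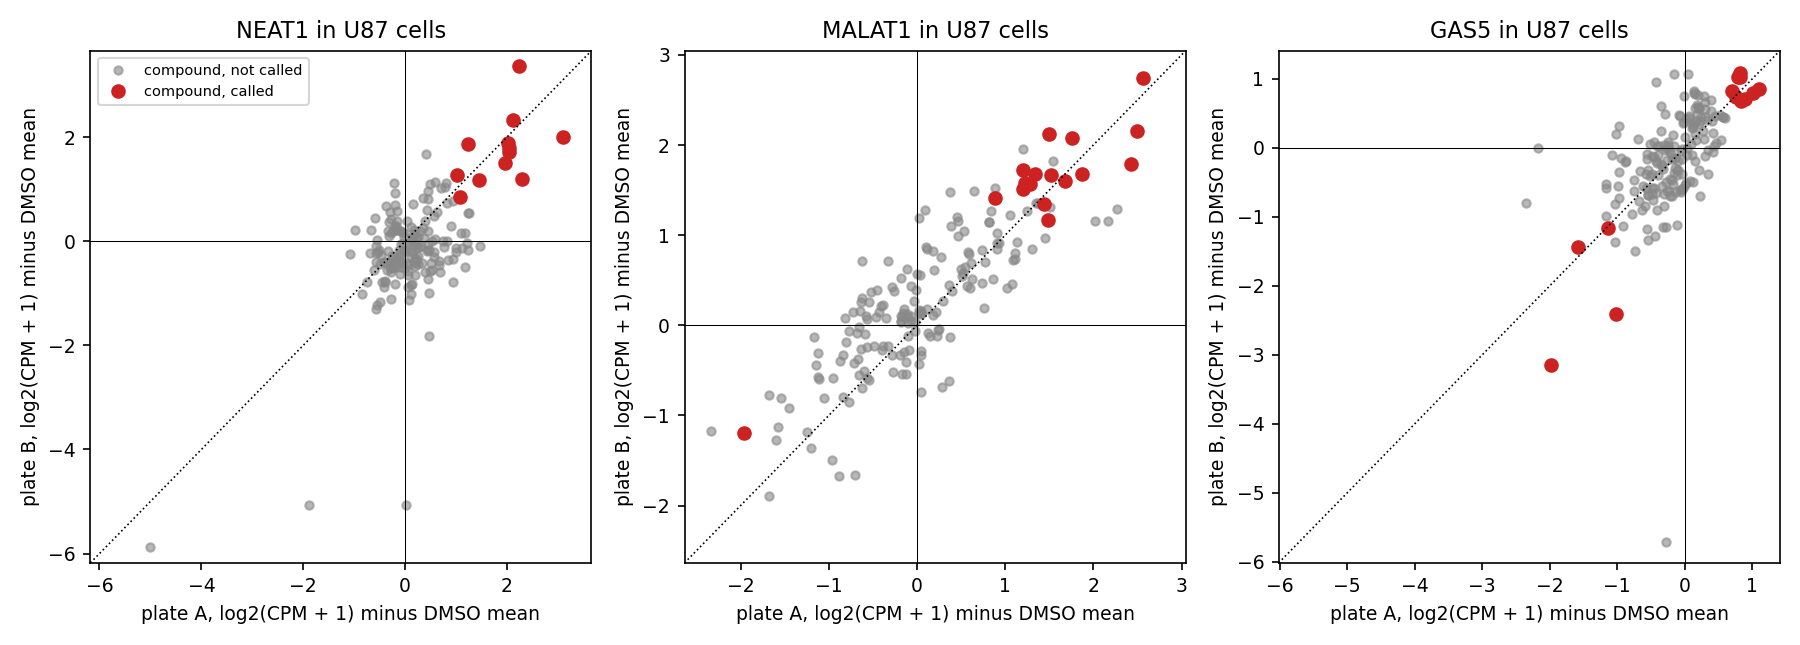
NEAT1, MALAT1 and GAS5 in U87 cells. Each point is a compound, at its log2(CPM + 1) minus the mean of the DMSO wells on plate A (x axis) and plate B (y axis), with the dotted line at equality. Red points are the 12, 17 and 13 compounds called for each gene. The called compounds lie on the same side of 0 on both plates.

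The agreement of the duplicate plates over the 184 compounds differed between members. MALAT1 had a Pearson correlation of 0.88 between plates A and B, above that of 99.7% of 5728 genes with a mean of at least 20 CPM, and the median gene had 0.32. SNHG5 had 0.73, NEAT1 0.68, SNHG1 0.57, GAS5 0.54 and SNHG8 0.48. The NEAT1 value includes the fludarabine wells, which held no NEAT1 counts. The lowest compound of NEAT1 lay at -5.45 on the log2 scale, beside an SD of 0.80 over compounds. A correlation without these wells was not computed. SNHG3 was at 0.18, SNHG7 at 0.13, SNHG12 at 0.12 and EPB41L4A-AS1 at 0.078. These values are descriptions, since compounds share plates and well positions.

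Compounds of like action were also compared as classes, in 15 classes and 21 combinations of class and set. Each compound was a group of its own, and the change is their mean minus DMSO. The SE and p-values thus measure the spread between wells and not the differences between compounds of a class. The number of compounds is the number averaged, not a number of replicates. Of 210 member and class combinations 20 passed, 12 higher and 8 lower, where 4.95% of all genes and classes passed. NEAT1 rose with HDAC inhibitors in both sets, by 1.32 ± 0.228 in set 1 (SE, 4 compounds, edgeR adjusted p = 3.32e-05) and 1.02 ± 0.204 in set 4 (SE, 4 compounds, adjusted p = 0.00104). It also rose with MEK inhibitors in set 4 (1.03, 3 compounds), PLK1 inhibitors in set 4 (0.83, 2 compounds) and proteasome inhibitors in set 1 (0.80, 3 compounds). Single compounds carried some of these values. Of the PLK1 inhibitors, volasertib was at 1.51 and the other at 0.15, and of the proteasome inhibitors, bortezomib was at 1.85, ixazomib at 0.29 and carfilzomib at 0.27. Among HDAC inhibitors, romidepsin (2.56), belinostat (1.97), resminostat (2.11) and PCI-24781 (1.61) passed, while pracinostat (0.98), vorinostat (0.60), panobinostat (0.29) and rocilinostat (-0.65) did not. Tubulin binders, the class nearest to albendazole, gave -0.03 in set 1 with 6 compounds and 0.09 in set 4 with 2, and neither passed. The class calls rest on both duplicates: 1 of 210 passed without the compound wells of plate A and 7 without those of plate B.

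MEK inhibitors of set 4 gave changes in both directions, and the rise of MALAT1 was the only class call that passed in every alternative. MALAT1 was higher by 2.05 ± 0.197 (SE, 3 compounds, edgeR adjusted p = 8.46e-05), while SNHG3 fell by 1.07 (adjusted p = 0.00046), GAS5 by 0.98 (adjusted p = 0.00625) and SNHG1 by 0.94 (adjusted p = 3.28e-05) on the log2 scale. With the 2 MEK inhibitors of set 1, MALAT1 was at 0.52, NEAT1 at 0.31, SNHG3 at -0.55 and SNHG1 at -0.25, none of them called. GAS5 was also lower with the 2 MEK inhibitors of set 1 (-0.70) and with HDAC inhibitors in both sets (-0.63 and -0.66). It rose with the 2 tubulin binders of set 4 (0.65), of which plinabulin alone was called as a single compound. With the 6 tubulin binders of set 1 GAS5 was at 0.02 with no call. SNHG7 fell by 2.15 ± 0.484 with HDAC inhibitors in set 4 (SE, 4 compounds, edgeR adjusted p = 0.00347). In set 1 it was at -0.13 with no call. The set 4 DMSO wells of SNHG7 were low, at 19.4 and 28.3 CPM on plate A and 10.0 and 16.4 CPM on plate B. No single compound was called for SNHG7. Mithramycin A and dactinomycin together raised EPB41L4A-AS1 (1.32) and SNHG8 (0.48), proteasome inhibitors EPB41L4A-AS1 (1.15). The 2 platinum compounds of set 4 raised MALAT1 (1.19) and lowered SNHG5 (-0.65), while in set 1 MALAT1 was at -0.56 and SNHG5 at 0.30 with no call. HDAC inhibitors of set 4 raised MALAT1 (0.84).

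**Figure D4:**
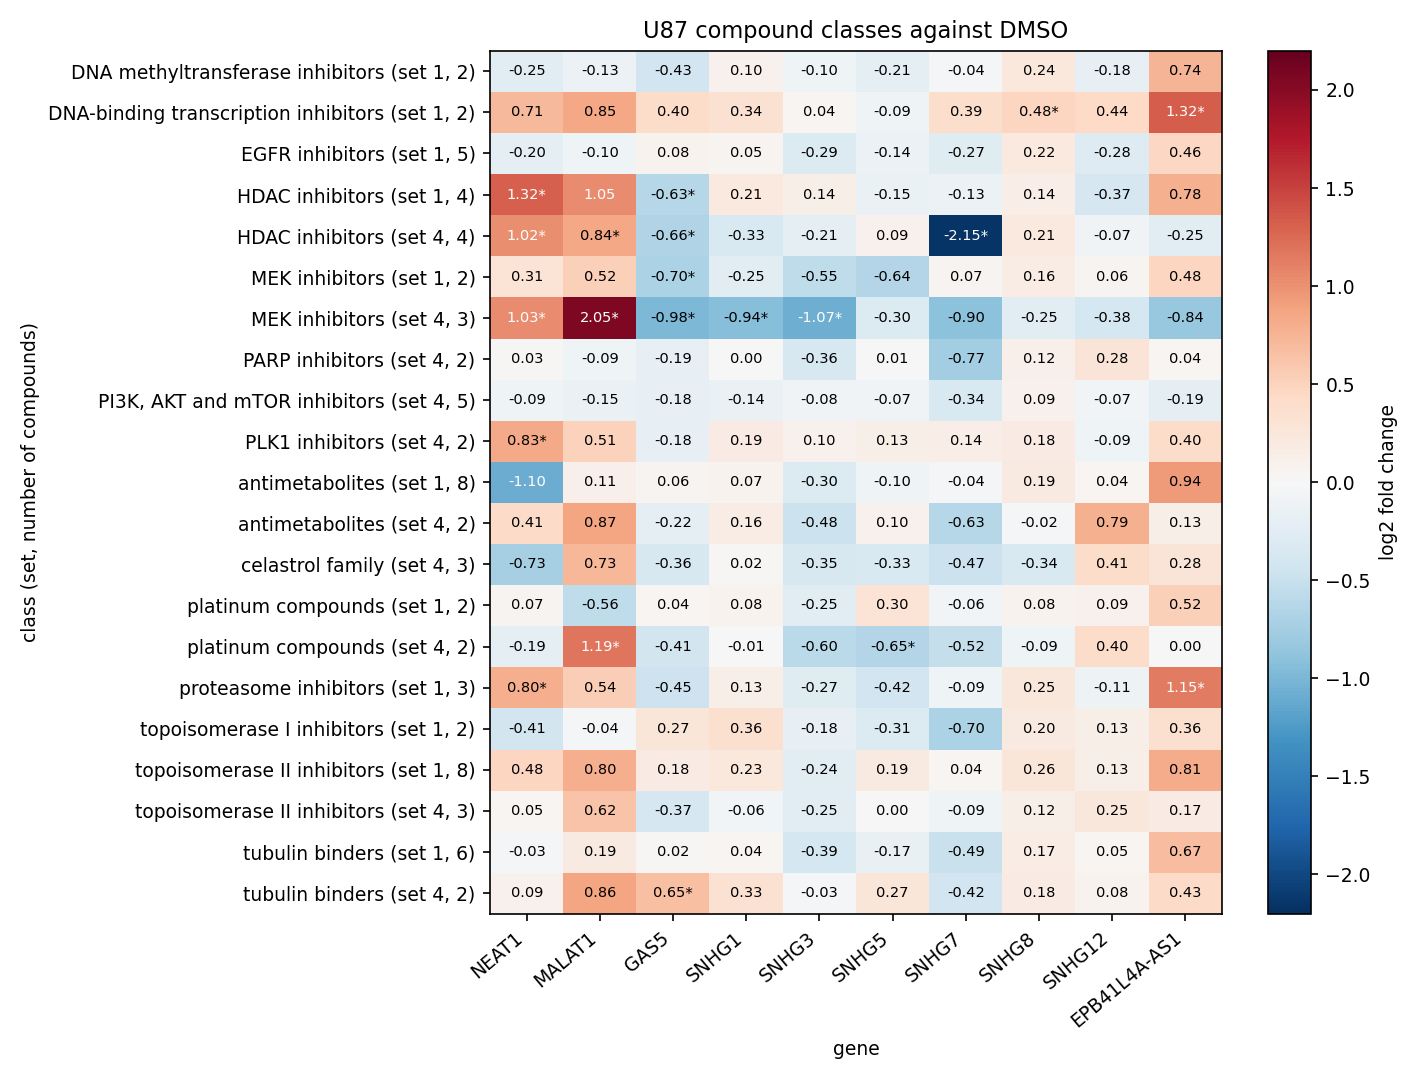
Log2 fold change against DMSO in U87 cells for each class of compounds (rows, with the set and the number of compounds) and member (columns). Red is higher, blue lower, and asterisks mark an adjusted p under 0.05. NEAT1 is at 1.32 and 1.02 for HDAC inhibitors, and MALAT1 at 2.05 and GAS5 at -0.98 for MEK inhibitors of set 4.

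Lists of related genes were counted beside the members in U87 cells. Of 8 other noncoding hosts, 5.64% of gene and compound combinations passed, 75 higher and 8 lower, with a median log2 change of 0.18 against -0.01 over all genes. The 22 protein-coding hosts had 7.26% passing (180 higher, 114 lower), and 8 snoRNP proteins 3.13% (8 higher, 38 lower). Paraspeckle proteins had 2.12%, nonsense-mediated decay factors 1.39% and other lncRNAs 0.543%. With the MEK inhibitors of set 4, where SNHG1, SNHG3 and GAS5 fell, the snoRNP protein genes FBL (-0.67), DKC1 (-0.84) and NOP56 (-1.06) fell as well, 4 of 8 in all, and none rose, where 13.2% of all genes passed. Among noncoding hosts there, SNHG16 (-1.02) and ZFAS1 (-0.56) fell and SNHG6 rose (0.97).

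The genes whose levels followed NEAT1 most closely over the 184 compounds were ATP6V1B2 (Pearson r = 0.67), a subunit of the vacuolar proton pump, HSPA5 (0.67), the main chaperone of the endoplasmic reticulum, VWA5A (0.66), CHCHD7 (0.65) and C11orf68 (0.64). The median over 5727 genes was 0.12 and the 95th percentile 0.43. The NEAT1 values include the fludarabine wells, which held no NEAT1 counts, and were not computed without them. On plate B alone CHCHD7 had r = 0.22, and the others had between 0.62 and 0.67. Spearman's rho of these 5 genes with NEAT1 was lower, between 0.25 and 0.39, while for the 5 genes of MALAT1 it was between 0.62 and 0.67. MALAT1 was followed by MAN1A2 (0.67), MAP9 (0.67), TPR (0.65), GCC2 (0.65) and AKAP9 (0.65), with a median of 0.00 over all genes. GAS5 was followed by DCTD (0.53), AIMP1 (0.51), TFE3 (0.49), RCN1 (0.47) and BCAP29 (0.47). Among the members themselves 38 of 45 pairs had a positive r, among them SNHG3 with SNHG8 (0.48) and GAS5 with SNHG8 (0.46). The order of the pairs changed with the measure, since Spearman's rho was 0.27 and 0.33 for these pairs and 0.36 for SNHG1 with SNHG8. MALAT1 with SNHG5 (-0.17) and SNHG3 (-0.16) were among the lowest. The points share plates, depth and well positions, and the values are descriptions.

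Of the BT20 drugs, 5 were also given to U87 cells, at lower doses and for 24 h in place of 6 h, so the values are set side by side without a comparison. Bortezomib at 0.01 µM in U87 cells gave NEAT1 levels of 156 and 134 CPM, a log2 change of 1.85 (edgeR adjusted p = 7.45e-05), beside 1.47 and 1.05 in the BT20 wells and pools at 0.044 µM. Without its well of plate A the U87 change was 1.30 and no longer passed. EPB41L4A-AS1 had 1.87 with bortezomib in U87 cells and 0.38 in the BT20 pools. Crizotinib at 0.181 µM left NEAT1 at 0.13 in U87 cells with no call, beside 1.11 and -0.44 at 7.16 µM in BT20 wells and pools. NEAT1 had 0.12 with mitoxantrone, 0.26 with idarubicin and -0.08 with gemcitabine in U87 cells, and none passed.

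Levels across lines were set over the 23183 symbols that all tables share. The line, the plate and the day cannot be told apart here, so they are given with no test. NEAT1 had a median of 816 CPM in BT20 DMSO wells, between 31.0 and 84.5 CPM in the control wells of the 4 U87 plates, and 36.8 and 77.5 CPM on the LNCaP plates, with no overlap of BT20 with the others. SNHG7 was also highest in BT20 cells, at 142 CPM against 9.9 to 27.6 CPM elsewhere. SNHG5 was highest in U87 cells, at 374 to 922 CPM against 13.7 CPM in BT20 cells and 116 and 70.2 CPM on the LNCaP plates. SNHG8 was highest in LNCaP cells, at 1420 and 1618 CPM, then 234 to 602 CPM in U87 cells and 58.2 CPM in BT20 cells. MALAT1, at 644 CPM in BT20 cells, 438 to 1535 CPM in U87 cells and 147 and 1526 CPM in LNCaP cells, had no order of lines beyond the spread of plates. GAS5 was at 244 CPM in BT20 cells, 58.6 to 178 CPM in U87 cells and 260 and 127 CPM in LNCaP cells, and SNHG3 at 47.6, 38.1 to 149, and 242 and 140 CPM, so that plates of 1 line spread as widely as the lines. SNHG1 was lowest in BT20 cells, at 125 CPM beside 130 CPM on the nearest U87 plate and 261 and 313 CPM in LNCaP cells. EPB41L4A-AS1 was highest in LNCaP cells, at 65.7 and 78.6 CPM, and SNHG12 lay between 18.9 and 45.4 CPM on every plate.

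The LNCaP lysates were split between a capture plate and a column with beads. MALAT1 had 478, 1522 and 5547 CPM on plate A1 (lowest, median and highest of 96 wells) and 42.8, 147 and 275 CPM on plate A2. The mean was 1630 ± 810 CPM against 148 ± 50.8 CPM (SD, n = 96 wells each), 11.0-fold, and A1 was higher in 96 of 96 wells of the same number with no overlap of the plates. This was the largest difference of 5495 genes with a mean of at least 20 CPM. A difference of at least 2-fold in either direction held for 8.41% of these genes. With 1 plate per purification, plate and purification cannot be told apart, and no test was made.

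NEAT1 went the other way, with 37.8 ± 13.8 CPM on A1 and 80.9 ± 32.6 CPM on A2 (SD, n = 96 wells each), and A1 was higher in only 8 of 96 pairs. The plates overlapped, at 3.37 to 83.2 CPM and 22.0 to 206 CPM. GAS5 was 1.96-fold higher on A1 (96 of 96), SNHG3 1.71-fold (94 of 96) and SNHG5 1.55-fold (83 of 96). SNHG8, SNHG1, EPB41L4A-AS1 and SNHG12 had A1 to A2 ratios of 0.865, 0.849, 0.783 and 0.588. SNHG7 was under 20 CPM on A1, with a ratio of 0.633. Plate A2 held 21 wells of low depth and A1 held 1. MALAT1 also spread more between A1 wells than 98.5% of 134 genes of like mean, with an SD of 0.649 on the log2 scale against a median of 0.220.

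**Figure D5:**
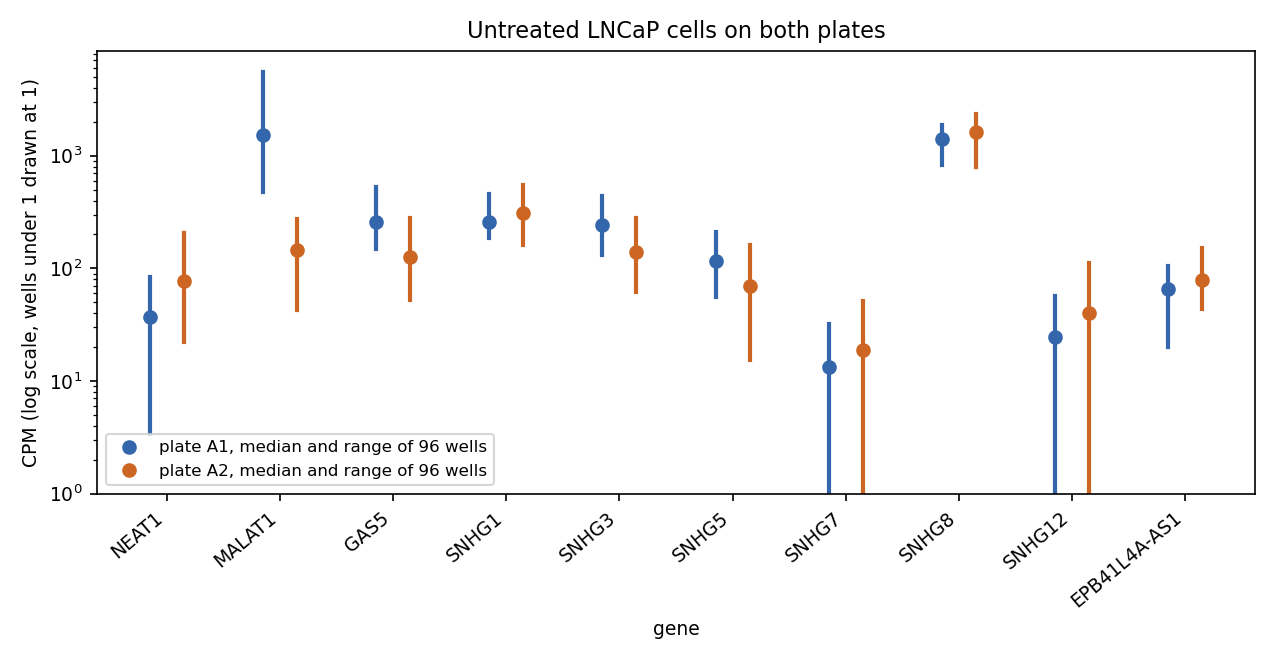
Levels of the 10 members in untreated LNCaP cells in CPM on a log axis, by plate. Points are medians and lines the range of 96 wells, with wells under 1 CPM drawn at 1. MALAT1 has medians of 1522 and 147 CPM on plates A1 and A2 with no overlap, and NEAT1 has 36.7 and 77.3 CPM.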

How the data were processed

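The deposited values are counts. Per the methods, the authors assigned PLATE-Seq reads to wells by barcode, aligned them to the UCSC known genes of hg19 with BWA (both also named in the submitters' processing notes) and counted uniquely mapped sense reads per gene symbol. The alignment and counting of TruSeq reads are not given in the sources used here. The tables list 28430 symbols for BT20 and 23710 for U87 and LNCaP, and spike-in rows were left out.

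The members and gene lists were chosen with earlier results of these data known. Counts were tested with edgeR 4.0.16 (limma 3.58.1, R 4.3.3) by the quasi-likelihood test with TMM normalization and Benjamini-Hochberg adjustment over all genes. Genes were kept by filterByExpr in BT20 and by a mean count of at least 5 in U87, and called at an adjusted p under 0.05. All members are reported. For other lists at most 3 called genes of smallest p are named, for each member at most 5 compounds with the largest rise and 5 with the largest fall, and for likeness the 5 genes of highest correlation. Some compounds were named again for the number of members called, for low counts or as shared drugs, and the extremes among member pairs were picked after their values were seen. Alternatives were DESeq2 1.42.0, RLE normalization, other filters, other controls, totals without the 6 most abundant symbols, wells of low depth (under 0.5 times the plate median) or single replicates left out, and a block of 8 consecutive wells. The procedures were tested on simulated data. Levels and plots used Python 3.11.15, numpy 2.4.6, pandas 2.3.3 and matplotlib 3.10.9. Start windows and the snoRNA genes inside each host came from RefSeq, 3′ ends from the GRCh37 genome and gene positions from its GENCODE annotation. 2 compounds with code names are given by their action. No molecular identifiers are named, so counts include amplified copies. Some genes of the marker and pathway lists are not reported here.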

Additional observations from a re-analysis of the deposited data

Results flagged for a closer look

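NEAT1 with crizotinib stood out because its effect differed between the 2 kinds of library made from the same BT20 wells. The log2 fold change in PLATE-Seq minus that in TruSeq was 1.55 ± 0.227 (SE, edgeR joint fit, adjusted p = 3.59e-05), with 12 of 12 PLATE-Seq wells above the highest DMSO well and both TruSeq pools below both DMSO pools. The cause was not tested. In the 40 groups of 4 control wells that were checked, 0 held a well far from the others by Dixon's 95% value.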

How the results depend on the processing

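On the BT20 plate the 3 calls, all of NEAT1, passed in every alternative, and the counts were 3 or 4. With the run of 8 wells as a replicate block the count was 3. Run numbers do not pair the wells: a drug well and the DMSO well of its run had a mean correlation of 0.00543 over 84 pairs and 8806 genes, and 0 pairs were over 0.1. In TruSeq, leaving out 1 pool gave 14 to 20 calls beside 16, and 10 of the 16 passed in every alternative.

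In U87 cells DESeq2 called 103 member and compound combinations beside 62 (81 higher, 22 lower), 50 of them of MALAT1 beside 17. Leaving out replicates gave 15 to 64, with 15 and 17 when the compound wells of plate A or plate B were left out, 39 without the first DMSO replicate, and 44 and 47 without the third and the fourth. The lone well left is assumed to vary like the controls. Of the 62, 9 passed in every alternative that gave them a value: NEAT1 with 4 -METHOXYCHALCONE, OTX015, romidepsin, resminostat and PCI-24781, MALAT1 with OTX015 and pimasertib, and SNHG1 with 4 -METHOXYCHALCONE and doxorubicin. For SNHG1 with doxorubicin the fit without wells of low depth gave no value, since both doxorubicin wells were under 0.5 times their plate median. The other 53 lost their call in at least 1. Without wells of low depth, an alternative chosen after seeing the data, 50 of 1780 passed, and the classes gave 17.

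For classes the count was 20, and 33 with DMSO and untreated wells together. Leaving out replicates gave 1 to 15, lowest at 1 without the compound wells of plate A, 7 without those of plate B, 11 without the first and 10 without the third DMSO replicate. Of the 20, 1 passed in every alternative, MALAT1 with MEK inhibitors of set 4. The number of members whose BT20 median exceeded every U87 plate median was 4, and 2 over all symbols of each table. Other counts stayed within 1.5 times the reported one, and no called change reversed its direction. Of the 45 correlations between members, 9 changed sign in at least 1 alternative. Depth limits SNHG5 in BT20 wells, SNHG7 in U87 wells, and SNHG12 and EPB41L4A-AS1 in both, which had few counts per well.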
